A study of Mus musculus with 6 samples.

Results

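The reelin pathway genes and the genes that mark Cajal-Retzius cells were followed through RNA-seq of mouse neural progenitor cells (NPCs) with and without Ybx1. The set was chosen by name and held 7 of the 51733 genes in the count tables. Reln, Vldlr, Lrp8 and Dab1 make up the core of the pathway, and Trp73, Calb2 and Ndnf mark Cajal-Retzius cells. A total of 6 of the 7 genes passed the expression filter (mean FPKM above 1 in either group) and were tested, among 21329 tested genes. Trp73 did not pass.

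Cells that express Sox2, a transcription factor of neural stem and progenitor cells, were sorted from neural tubes of C57BL/6 embryos at E13.5 and their total RNA was sequenced in stranded paired-end libraries. Control libraries (control 1 to 3) came from wild-type embryos and Ybx1-KO libraries (Ybx1-KO 1 to 3) from embryos carrying the Ybx1 null allele. The knockout is constitutive, so every tissue of the embryo lacked the gene, and per the study's methods the Sox2-positive cells were sorted with a Sox2-eGFP reporter allele. A whole neural tube spans forebrain to spinal cord, and the labels do not say which levels went into each library. The titles of control 1 and control 2 begin with a common number, and so do those of Ybx1-KO 1 and Ybx1-KO 2, which the sources used here do not explain. If it marks a shared litter, the libraries are not all independent, and p-values measure only the spread between these samples.

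Reelin is a large glycoprotein secreted into the extracellular matrix. It binds the lipoprotein receptors Vldlr and Lrp8 (also called ApoER2) on migrating neurons and radial glia, and the bound receptors lead Src-family kinases to phosphorylate the adaptor Dab1, which relays the signal to the cytoskeleton. In the developing cortex reelin comes mainly from Cajal-Retzius cells, early-born neurons of the marginal zone that arise at the cortical hem, the septum and other edges of the pallium, and groups of neurons in the hindbrain and spinal cord make it as well.

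Library depth differed between the groups. The control libraries held 20841990 to 23883542 counts on genes and the Ybx1-KO libraries 4743279 to 13321952, so 3 counts, the smallest amount taken as shown, corresponded to 0.126 to 0.632 CPM (counts scaled to the library total). The CPM of genes and marker lists given below are also divided by TMM factors (trimmed mean of M values), from 0.727 in Ybx1-KO 2 to 1.57 in Ybx1-KO 3. The 3-count values and FPKM are not. Ybx1-KO 3 stood apart, with 59.5% of its read pairs assigned to no gene feature in the counting, against 30.6 to 46.7% in the other 5 libraries. The tallies do not say where these pairs lie. In this library 81.9% of 1729 olfactory, vomeronasal and taste receptor genes, which NPCs are not known to use, had counts, against 2.43 to 29.0% elsewhere. Their level there had a 99th percentile of 6.39 FPKM (CPM per kilobase of exon). The 12 progenitor markers summed to 1330 to 2165 CPM in the 6 libraries and the 13 neuron markers to 2114 to 6494 CPM, so the cells labelled NPCs also held abundant neuronal transcripts. No gene of the series reached an adjusted p below 0.05 with a fold change above 1.5 (0% of tested genes, quasi-likelihood test in edgeR, p adjusted by Benjamini-Hochberg), and the smallest adjusted p was 0.167. At an unadjusted p below 0.05 the same test put 4.26% of genes lower and 6.96% higher in Ybx1-KO NPCs, while DESeq2 called 118 genes higher and 96 lower at the adjusted threshold.

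The deleted gene was measured first as a check of the labels. Normalized levels of Ybx1 were 238, 531 and 306 CPM in control 1, 2 and 3 and 126, 55.4 and 9.66 CPM in Ybx1-KO 1, 2 and 3. The groups did not overlap, with a log2 fold change of -2.49 (SE 0.675, adjusted p = 0.301, edgeR). Reads remained in all Ybx1-KO libraries, most in Ybx1-KO 1, and the exons removed by the allele are not given in the sources used here.

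All 4 core reelin genes had lower mean levels in Ybx1-KO than in control NPCs, but none passed the test after adjustment. The adaptor Dab1 and the receptor Vldlr stood furthest apart, each at under 40% of the control level, with no overlap between the groups. Reln itself and the receptor Lrp8 differed less, and the Reln levels of the groups overlapped. The 3 Cajal-Retzius genes showed no separation between the groups. The plot of normalized levels by library shows these patterns side by side.

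**Figure D1:**
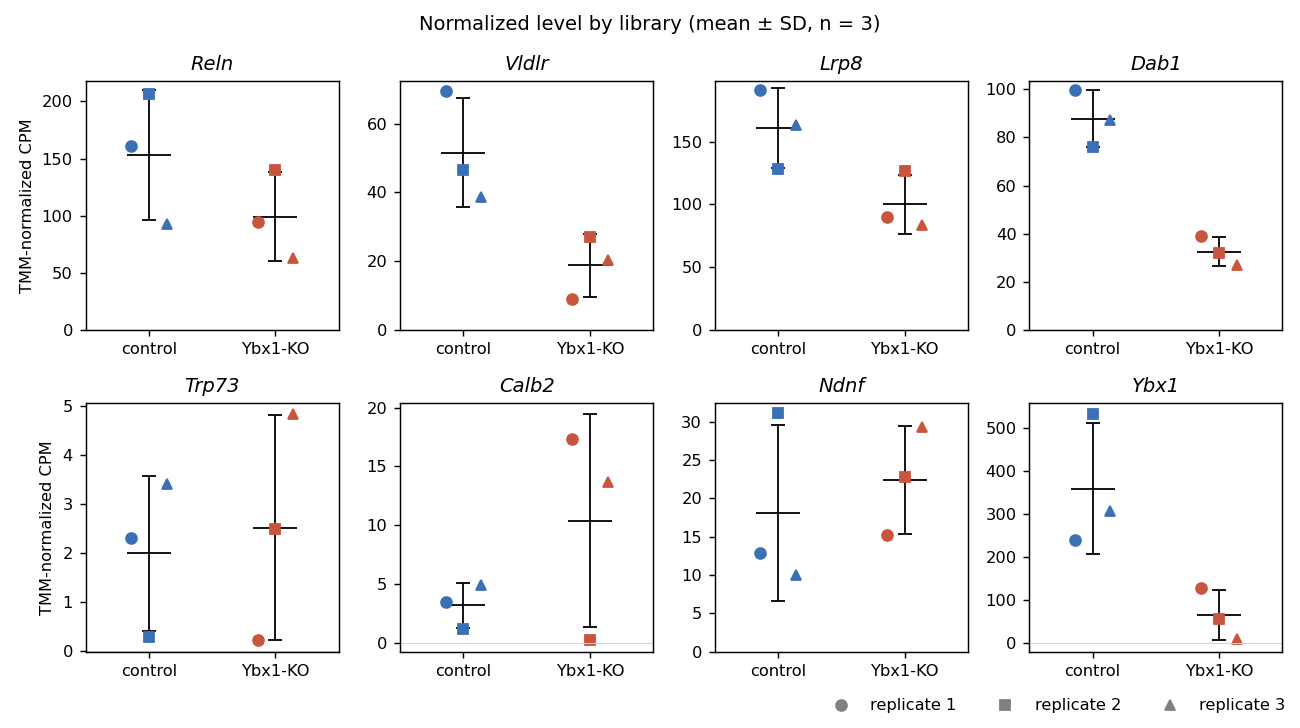
TMM-normalized CPM (linear axis) of the 7 genes and of Ybx1 in each library, with control libraries in blue, Ybx1-KO libraries in red, marker shapes for replicates, and black bars for the mean ± SD of 3 libraries. Dab1 and Vldlr show a gap between the groups (lowest control 76.1 and 38.7 CPM, highest Ybx1-KO 38.8 and 26.9 CPM), while Reln, Trp73, Calb2 and Ndnf overlap.

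Per exon length, the 2 receptors, the adaptor and the ligand were the more abundant members. In control NPCs the mean level was highest for Lrp8, at 14.4 ± 3.65 FPKM (SD, n = 3), followed by Dab1 at 10.4 ± 2.03 FPKM and Reln at 6.04 ± 2.20 FPKM. Vldlr followed at 4.85 ± 1.80 FPKM. Below them lay Calb2 at 1.72 ± 1.02 FPKM, Ndnf at 1.65 ± 0.981 FPKM and Trp73 at 0.341 ± 0.266 FPKM. Across the control libraries the ranges of the neighbours Lrp8 and Dab1 overlapped, as did those of Reln and Vldlr and of Calb2 and Ndnf, whereas Dab1 lay above Reln, Vldlr above Calb2, and Ndnf above Trp73 in every comparison of control libraries. In Ybx1-KO NPCs Lrp8 remained first at 9.77 ± 1.70 FPKM, ahead of Calb2 at 7.35 ± 6.32 FPKM, whose libraries disagreed widely. Dab1 and Reln stood close together there, at 4.34 ± 1.24 and 4.11 ± 0.167 FPKM, and Ndnf (2.49 ± 1.56 FPKM) and Vldlr (1.95 ± 1.03 FPKM) did not differ beyond their spread. Trp73 was lowest again at 0.554 ± 0.657 FPKM.

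**Figure D2:**
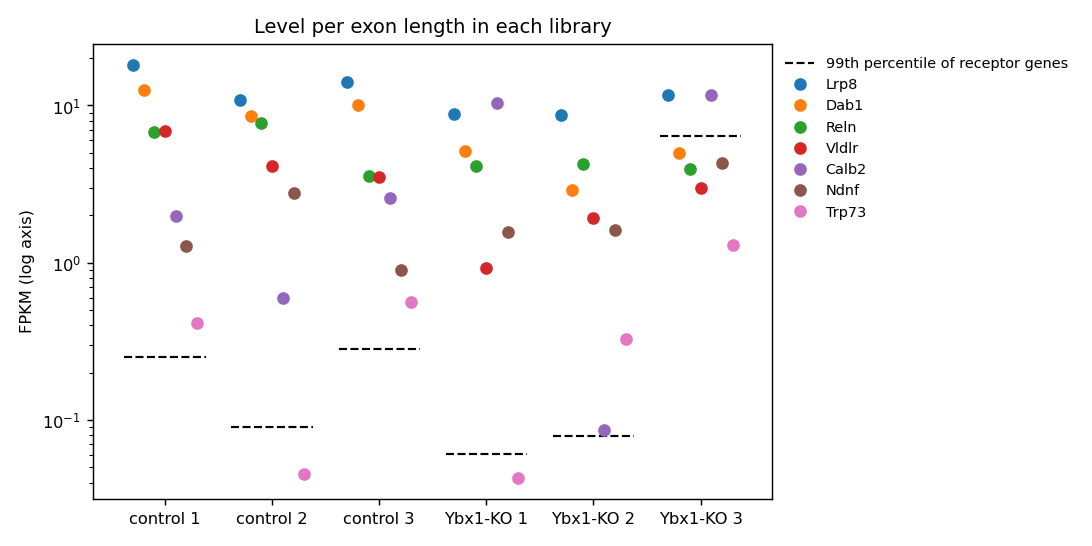
FPKM (log axis) of the 7 genes in each of the 6 libraries, in the order of the legend, with a dashed line at the 99th percentile of 1729 olfactory, vomeronasal and taste receptor genes in the same library. Trp73 lies below the line in control 2, Ybx1-KO 1 and Ybx1-KO 3, the other genes lie above it in 5 libraries or all, and in Ybx1-KO 3 the line stands at 6.39 FPKM and of the 7 genes only Lrp8 and Calb2 lie above it.

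The genomic sequence just before the annotated start is shown for the ligand and for Dab1 and Vldlr, the genes with the widest gap between the groups, because the deleted protein is named for the Y box, a promoter element built around CCAAT. Sequences are from RefSeq on GRCm38.p6, on the strand of the gene, and end at or before the start of the gene in GENCODE. Capitals mark CCAAT on either strand (ATTGG on the reverse). The Reln window is chr5:22344706-22344955 on the minus strand, the Dab1 window chr4:103619250-103619358 on the plus strand, and the Vldlr window chr19:27216234-27216483 on the plus strand.
Reln: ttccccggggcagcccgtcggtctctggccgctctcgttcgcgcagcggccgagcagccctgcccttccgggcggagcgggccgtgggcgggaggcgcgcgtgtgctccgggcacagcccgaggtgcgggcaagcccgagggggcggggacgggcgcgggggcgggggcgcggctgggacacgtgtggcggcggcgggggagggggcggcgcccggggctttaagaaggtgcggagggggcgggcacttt
Dab1: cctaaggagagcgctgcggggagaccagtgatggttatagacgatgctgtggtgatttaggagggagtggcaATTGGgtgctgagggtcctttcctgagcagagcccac
Vldlr: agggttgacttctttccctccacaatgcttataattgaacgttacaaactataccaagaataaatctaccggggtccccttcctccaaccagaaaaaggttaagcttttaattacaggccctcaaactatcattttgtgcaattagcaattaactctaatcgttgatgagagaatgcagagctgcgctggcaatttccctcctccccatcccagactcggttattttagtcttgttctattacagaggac
The Reln window held 37 CpG dinucleotides in 250 bases at 80.0% GC, and that of Vldlr held 5 at 41.6% GC. Over 32851 RefSeq promoters the medians for 250 bases before the start were 6 CpG and 52.4% GC, so the Reln sequence is a CpG-dense one. CCAAT in either orientation was found in 33.8% of those promoters and the longer Y box letters CTGATTGG, which contain it on the reverse strand, in 3.83%. The Dab1 sequence held 1 ATTGG, with 3 CpG and 56.9% GC, and the Reln and Vldlr sequences held no CCAAT in either orientation. The Dab1 sequence has only 109 bases, so the shares and medians for 250 bases do not apply to it directly. RefSeq lists a second promoter for Vldlr, chr19:27216770-27217019 on the plus strand, which held 1 ATTGG, 18 CpG and 66.4% GC, and a second one for Dab1, chr4:104367288-104367537 on the plus strand, which held 40 CpG and no CCAAT. The longer Y box letters were in none of these windows. These matches describe letters only, and binding was not tested.

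Reln, the secreted ligand, lies at chr5:21884454-22344702 on the minus strand (GENCODE M21, GRCm38), with 23738 bases of exon in 67 blocks. Its normalized level was 161, 206 and 93.0 CPM in control 1, 2 and 3 and 94.3, 140 and 62.9 CPM in Ybx1-KO 1, 2 and 3, from 443 to 4408 counts. Control 2 was highest and Ybx1-KO 3 lowest, but control 3 lay below both Ybx1-KO 1 and Ybx1-KO 2. In FPKM scaled by library totals, control 3 was the lowest library, at 3.58 FPKM against 3.93 to 4.27 FPKM in Ybx1-KO NPCs. The group means were 153 ± 57.0 and 99.1 ± 38.8 CPM (SD, n = 3), and the log2 fold change was -0.63 (SE 0.442, 95% interval -1.56 to 0.30, adjusted p = 0.512, edgeR). The two-sided exact permutation test over the libraries gave p = 0.3, where 3 against 3 cannot go below 0.1. The difference was therefore within the spread between libraries. It ranged from -0.96 to -0.35 over the alternatives. In a separate assay, the study reported significantly lower Reln in Ybx1-KO NPCs than in those of sibling controls. An antisense gene, Gm10475, shares 246 bases (1.04%) of the Reln exons and held 6 to 166 counts, against 443 to 4408 for Reln.

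Because neurons make Reln, its level was also set against the neuron markers of the same library. Per 1000 CPM of neuron markers, Reln stood at 44.5, 31.8 and 21.5 CPM in control 1, 2 and 3 and at 18.5, 29.9 and 29.8 CPM in Ybx1-KO 1, 2 and 3. The groups overlapped, and the mean log2 ratio was lower in Ybx1-KO by a difference of -0.30 (exact permutation p = 0.4). The difference rested on single libraries, at -0.04 without control 1, -0.06 without Ybx1-KO 1 and -0.56 without control 3. Against the progenitor markers the log2 difference was -0.63 (exact permutation p = 0.2). In bulk RNA of this kind, fewer cells that make a transcript and less of it per cell cannot be told apart.

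The genes whose pattern over the 6 libraries was most like that of Reln were Ralgapa1 (Pearson r = 0.999 on log2 normalized CPM), Qk (0.995), Ralgapb (0.993), Trim33 (0.992) and Nrcam (0.992). Ralgapa1 and Ralgapb encode subunits of a GTPase-activating complex, Qk an RNA-binding protein, Trim33 a ubiquitin ligase and Nrcam a neuronal cell adhesion molecule. Altogether 387 of the 21328 other tested genes had r of at least 0.9. With 6 points that share their depth and scaling, such values describe these libraries only. None of the other reelin genes was among the 387, with r of 0.61 for Vldlr, 0.58 for Lrp8 and 0.56 for Dab1. Among the Cajal-Retzius genes, Calb2 had r of -0.76 and Ndnf of 0.12.

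Vldlr, one of the receptors for reelin and a member of the lipoprotein receptor family, lies at chr19:27216484-27254231 on the plus strand with 10068 bases of exon. Its normalized level was 69.4, 46.6 and 38.7 CPM in control 1, 2 and 3 and 8.96, 26.9 and 20.3 CPM in Ybx1-KO 1, 2 and 3. All Ybx1-KO libraries lay below all control libraries, and the lowest control exceeded the highest Ybx1-KO library 1.44-fold. The mean was 51.5 ± 15.9 CPM in control and 18.7 ± 9.08 CPM in Ybx1-KO NPCs (SD, n = 3), 36.3% of the control mean. The log2 fold change was -1.46 (SE 0.44, 95% interval -2.39 to -0.53), with an adjusted p = 0.362 in edgeR and an unadjusted one of 0.00417. The exact permutation test gave p = 0.1, the smallest it can give here. In Ybx1-KO 3 Vldlr stood above 93.9% of the olfactory, vomeronasal and taste receptor genes, close to the level such genes reached in that library, and without Ybx1-KO 3 the log2 fold change was -1.56.

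Lrp8, the second receptor, lies at chr4:107802261-107876840 on the plus strand with 10514 bases of exon. The normalized level was 191, 128 and 164 CPM in control 1, 2 and 3 and 89.8, 127 and 83.1 CPM in Ybx1-KO 1, 2 and 3. The groups were separated only by the narrow step from Ybx1-KO 2 to control 2, a ratio of 1.01, and in FPKM scaled by library totals they overlapped. The means were 161 ± 31.7 and 99.8 ± 23.4 CPM (SD, n = 3), with a log2 fold change of -0.69 (SE 0.399, 95% interval -1.53 to 0.16, adjusted p = 0.461, edgeR). The exact permutation p was 0.1. Lrp8 exceeded Vldlr per length in every library, by 2.64, 2.63 and 4.05-fold in control 1, 2 and 3 and by 9.60, 4.51 and 3.92-fold in Ybx1-KO 1, 2 and 3. The ratio was largest in Ybx1-KO 1, but Ybx1-KO 3 lay within the control range. The log2 difference in the ratio was 0.86 (exact permutation p = 0.2), and 0.47 without Ybx1-KO 1, so an unequal change of the 2 receptors was not shown.

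Dab1, the intracellular adaptor that both receptors use, lies at chr4:103619359-104744844 on the plus strand with 7908 bases of exon. Its normalized level was 99.8, 76.1 and 87.3 CPM in control 1, 2 and 3 and 38.8, 31.8 and 26.7 CPM in Ybx1-KO 1, 2 and 3. On this scale, libraries agreed within each group more closely than for any other member, and the lowest control lay 1.96-fold above the highest Ybx1-KO library. In FPKM the Ybx1-KO libraries agreed less for Dab1 (SD 1.24 FPKM) than for Reln (SD 0.167 FPKM). In Ybx1-KO 3 Dab1 stood above 98.3% of the olfactory, vomeronasal and taste receptor genes, and without Ybx1-KO 3 the log2 fold change was -1.34. The mean was 87.7 ± 11.8 CPM in control and 32.4 ± 6.06 CPM in Ybx1-KO NPCs (SD, n = 3), 37.0% of the control mean. The log2 fold change was -1.44 (SE 0.372, 95% interval -2.22 to -0.65), with an adjusted p = 0.287 in edgeR and an unadjusted one of 0.0013. DESeq2 gave a like log2 fold change of -1.36 with an adjusted p of 0.00229, so whether Dab1 passed depended on the tool. The exact permutation p was 0.1.

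Taken over the core genes, Dab1, Vldlr and Lrp8 were lower without overlap between the groups, 3 of 4 members, where 8.15% of all tested genes were lower and 4.99% higher without overlap. At an unadjusted p below 0.05, 2 of the 4 were lower, against 4.26% of all tested genes, and these, Dab1 and Vldlr, stayed below 0.05 in all 22 fits run, counting every alternative. The summed level of the 4 genes was 521, 457 and 383 CPM in control 1, 2 and 3 and 232, 325 and 193 CPM in Ybx1-KO 1, 2 and 3, without overlap. The median log2 fold change of the 4 genes was -1.06, against 0.31 over all tested genes. Without Ybx1-KO 3 it was -0.97, against -0.07 over all tested genes.

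**Figure D3:**
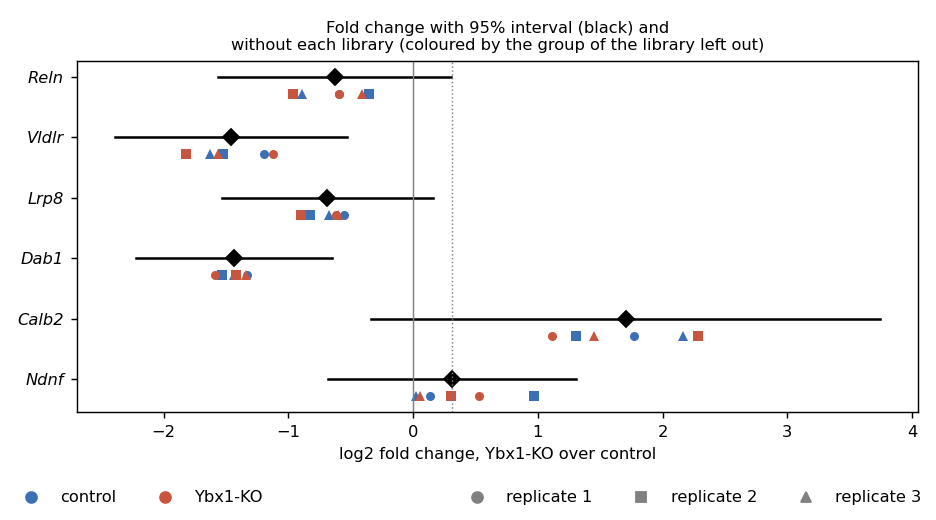
Log2 fold change of the 6 tested genes (black diamonds) with the 95% interval from edgeR (black lines), and below each the value when 1 library is left out, coloured by the group and shaped by the replicate of that library. The solid line marks 0 and the dotted line the median of all tested genes, 0.31. The intervals of Dab1 and Vldlr lie below 0, and the values of Calb2 spread most.

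Exon length moved with the fold change across these libraries. For the 2459 tested genes with exons at least as long as those of Dab1, which include all 4 core genes, the median log2 fold change was -0.24. Among these long genes, 15.7% were lower without overlap and 10.6% were lower at an unadjusted p below 0.05. The 8061 genes with exons shorter than those of Calb2 had a median of 1.83. These values rest on all 6 libraries and were not computed without Ybx1-KO 3. Leaving out Ybx1-KO 3 and applying the filter again left 15184 tested genes, whose median log2 fold change was 0.01. The log2 fold changes of Dab1 (-1.44), Vldlr (-1.46), Lrp8 (-0.69) and Reln (-0.63) all lay below the median of the long genes. The part of exon length in the differences of the reelin genes was not tested.

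Regional markers also differed between libraries. The summed level of 10 telencephalon markers was 1143, 168 and 1329 CPM in control 1, 2 and 3 and 294, 227 and 85.0 CPM in Ybx1-KO 1, 2 and 3. For 22 Hox genes of hindbrain and spinal cord the sums were 113, 956 and 280 CPM in control 1, 2 and 3 and 1238, 1266 and 554 CPM in Ybx1-KO 1, 2 and 3. Control 2 thus had telencephalon and Hox levels within the Ybx1-KO range. In that library Dab1 was at 76.1 CPM, Vldlr at 46.6 CPM and Reln at 206 CPM, each above every Ybx1-KO library, and Lrp8 at 128 CPM was almost level with Ybx1-KO 2. This is 1 library, and the part of regional makeup in the differences was not tested. Without control 2, the log2 fold change was -1.53 for Dab1, -1.53 for Vldlr and -0.36 for Reln.

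**Figure D4:**
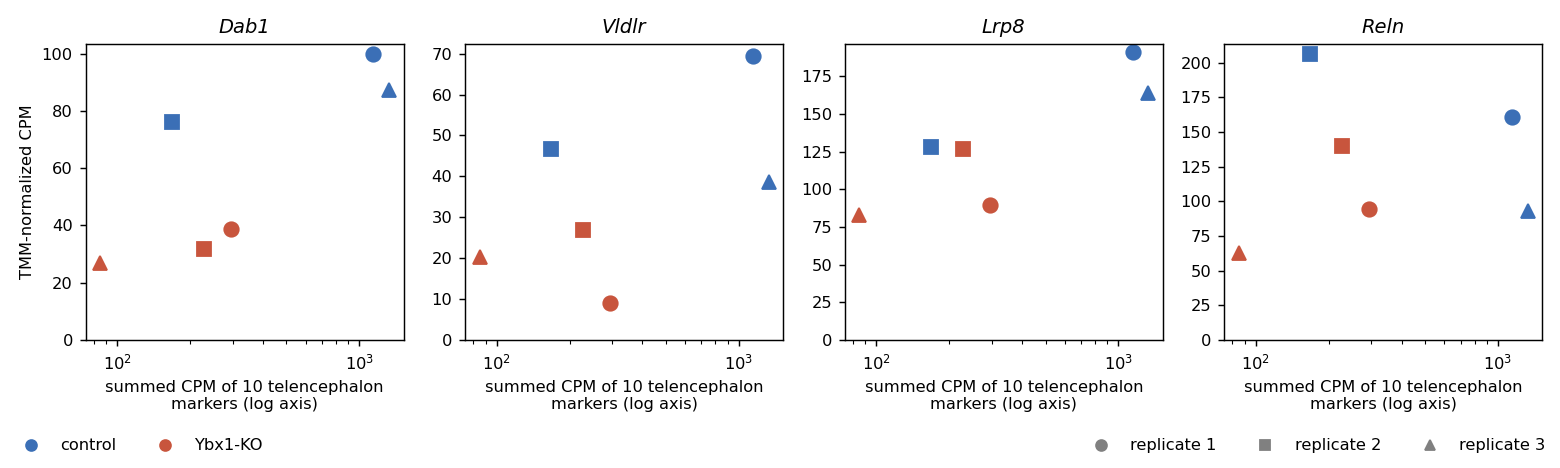
TMM-normalized CPM (linear axis) of Dab1, Vldlr, Lrp8 and Reln in each library against the summed CPM of 10 telencephalon markers (log axis), with control libraries in blue, Ybx1-KO libraries in red and marker shapes for replicates. Control 2, at 168 CPM of the markers, falls within the horizontal range of the Ybx1-KO libraries (85.0 to 294 CPM), where Lrp8 is at 128 CPM in control 2 and 127 CPM in Ybx1-KO 2, and Dab1 at 76.1 and 31.8 CPM.

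Markers of other cells were followed as well. Mesenchyme and meninges markers (8 of 10 tested) summed to 148 to 900 CPM in control and 89.7 to 148 CPM in Ybx1-KO libraries, highest in control 1. Erythroid markers ranged over 524 to 1220 and 207 to 1234 CPM, and neural crest and Schwann markers over 49.4 to 127 and 95.2 to 217 CPM. Endothelial markers (25.5 to 54.9 and 18.7 to 64.4 CPM) and markers of microglia and leukocytes (11.6 to 51.8 and 5.78 to 43.2 CPM) were scarce, and no marker of any list was at 0 in all libraries. The ranges of all these lists overlapped between the groups, those of the mesenchyme and meninges markers by less than 1 CPM. Of the 8 tested mesenchyme and meninges markers, 5 were lower and none higher at an unadjusted p below 0.05, against 4.26% and 6.96% of all tested genes. Their log2 median was -1.79, and without control 1 only 1 was lower and the median was -0.58. Of the 9 tested erythroid markers, 3 were lower and 1 higher, against the same 4.26% and 6.96%, with a log2 median of -0.55. The lower ones were Hbb-bt, Hbb-bs and Alas2 and the higher one Hbb-bh1, all named after their values were seen. With 1 library left out, the lower count was 2 to 4 and the higher count 0 to 2. Of the 8 neural crest and Schwann markers, 3 were higher and none lower, against the same 6.96% and 4.26%, with a log2 median of 0.46. The higher count was 1 without control 1 or without Ybx1-KO 2, 2 without control 3 and 4 without control 2. Without Ybx1-KO 2, 1 was also lower. The part of these cells in the differences of the reelin genes was not tested. Without control 1 the log2 fold change was -1.34 for Dab1 and -1.19 for Vldlr.

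Trp73, which encodes the p53 family member p73 and is required for Cajal-Retzius cells, lies at chr4:154056253-154140208 on the minus strand. Its normalized level was 2.30, 0.281 and 3.40 CPM in control 1, 2 and 3 and 0.227, 2.49 and 4.83 CPM in Ybx1-KO 1, 2 and 3, from 48, 6, 67, 2, 24 and 34 counts. It was lowest in control 2 and Ybx1-KO 1, with 6 and 2 counts, and the groups overlapped (exact permutation p = 0.8). The highest value, in Ybx1-KO 3, stood above only 75.8% of the olfactory, vomeronasal and taste receptor genes of that library. Under 3 other filters that let it in, the log2 fold change was 0.09 to 0.44 with adjusted p of 0.929 to 0.987 (edgeR). At this depth no difference was detectable.

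Calb2, which encodes the calcium-binding protein calretinin, lies at chr8:110137502-110168210 on the minus strand with 1743 bases of exon, the shortest of the members. Its normalized level was 3.45, 1.17 and 4.93 CPM in control 1, 2 and 3 and 17.3, 0.208 and 13.6 CPM in Ybx1-KO 1, 2 and 3, from 2 to 153 counts. Ybx1-KO 1 and 3 lay above all controls and Ybx1-KO 2 below all of them, at 2 counts. The log2 fold change was 1.70 (SE 0.965, 95% interval -0.34 to 3.74, adjusted p = 0.457, edgeR), with an exact permutation p of 0.4. Without Ybx1-KO 2 it was 2.28 (adjusted p = 0.0665), and limma-voom gave 0.35. The log2 fold change of 1.70 over all libraries lay near the median of 1.83 of the genes with shorter exons, which was not computed without Ybx1-KO 3.

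Ndnf, which encodes a secreted neurotrophic factor found in Cajal-Retzius cells and later in layer 1 interneurons, lies at chr6:65671590-65712326 on the plus strand. The level was 12.9, 31.2 and 10.0 CPM in control 1, 2 and 3 and 15.2, 22.7 and 29.3 CPM in Ybx1-KO 1, 2 and 3. Control 2 was the highest library and the other controls were the lowest. The log2 fold change was 0.31 (SE 0.470, 95% interval -0.68 to 1.31, adjusted p = 0.763, edgeR), equal to the median of all tested genes, and the exact permutation p was 0.6. Without control 2 the log2 fold change was 0.97 (adjusted p = 0.723). Without Ybx1-KO 3 it was 0.06, where the median of all tested genes was -0.07.

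The genes around the core members were described from lists drawn up by function, of which no gene was called after adjustment. Among 26 genes of the cascade below Dab1, all tested, 2 were lower and 1 higher at an unadjusted p below 0.05, where 4.26% of all tested genes were lower and 6.96% higher. None was lower without control 1 or without control 2, 1 without control 3 or without Ybx1-KO 3, and none was higher without Ybx1-KO 1. The list had its median at -0.21 on the log2 scale, and without Ybx1-KO 3 at 0.04. The lower pair comprised Pik3ca and Pik3r2, a catalytic and a regulatory subunit of PI3 kinase. Pik3ca was at 91.0, 113 and 68.6 CPM in control 1, 2 and 3 and at 36.1, 51.6 and 52.7 CPM in Ybx1-KO 1, 2 and 3. The groups did not overlap (log2 fold change -0.96, SE 0.382, adjusted p = 0.439, edgeR). Cdk5r2, an activator of the kinase Cdk5, was at 8.30, 38.3 and 33.6 CPM in control 1, 2 and 3 and at 166, 63.1 and 30.8 CPM in Ybx1-KO 1, 2 and 3. Ybx1-KO 3 lay within the control range (log2 fold change 1.70, adjusted p = 0.415, edgeR). The Src-family kinase Fyn, which phosphorylates Dab1, had a log2 fold change of -0.53 (adjusted p = 0.535, edgeR) and Pafah1b1, encoding the lissencephaly protein Lis1, of -0.47 (adjusted p = 0.594, edgeR). Pik3r2, Fyn and Pafah1b1 were named after their values were seen.

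Of 11 genes for reelin cleavage, Dab1 turnover and receptor traffic, 10 were tested, and 1 was lower and none higher at an unadjusted p below 0.05, against 4.26% and 6.96% of all tested genes. Without control 2 or without Ybx1-KO 2 the lower count was 2, and without any of the other 4 libraries it was 0, while 1 was higher without Ybx1-KO 2 or without Ybx1-KO 3. The log2 median was -0.10, and without control 1 it was 0.10. That 1 was Lrpap1, a chaperone of the lipoprotein receptors, at 55.1, 36.8 and 68.1 CPM in control 1, 2 and 3 and at 21.7, 43.9 and 20.5 CPM in Ybx1-KO 1, 2 and 3. Ybx1-KO 2 lay above control 2, and the log2 fold change was -0.89 (adjusted p = 0.444, edgeR). Dab2, a relative of Dab1 that acts in endocytosis, had a log2 fold change of -1.09 (adjusted p = 0.450, edgeR) with overlapping groups.

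Among 8 other ligands and relatives of the receptors, 1 was higher and 2 lower at an unadjusted p below 0.05, against 6.96% and 4.26% of all tested genes, and the median on the log2 scale was -0.41. None was lower without control 1, where the median was -0.06, and 1 was lower without control 3, without Ybx1-KO 1 or without Ybx1-KO 2. Lrp2, or megalin, an endocytic receptor of the same family, was at 11.2, 22.2 and 6.86 CPM in control 1, 2 and 3 and at 32.2, 31.4 and 49.0 CPM in Ybx1-KO 1, 2 and 3. The lowest Ybx1-KO library exceeded the highest control (log2 fold change 1.48, SE 0.455, adjusted p = 0.377, edgeR). Apoe, the lipid carrier that Vldlr and Lrp8 also bind, was at 33.4, 2.85 and 24.1 CPM in control 1, 2 and 3 and at 3.63, 3.63 and 5.83 CPM in Ybx1-KO 1, 2 and 3. Its log2 fold change was -2.21 (adjusted p = 0.377, edgeR), but control 2 had the lowest level of all libraries. Clu, which encodes the extracellular chaperone clusterin and was named after its values were seen, had a log2 fold change of -1.36 (adjusted p = 0.444, edgeR) with overlapping groups.

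**Figure D5:**
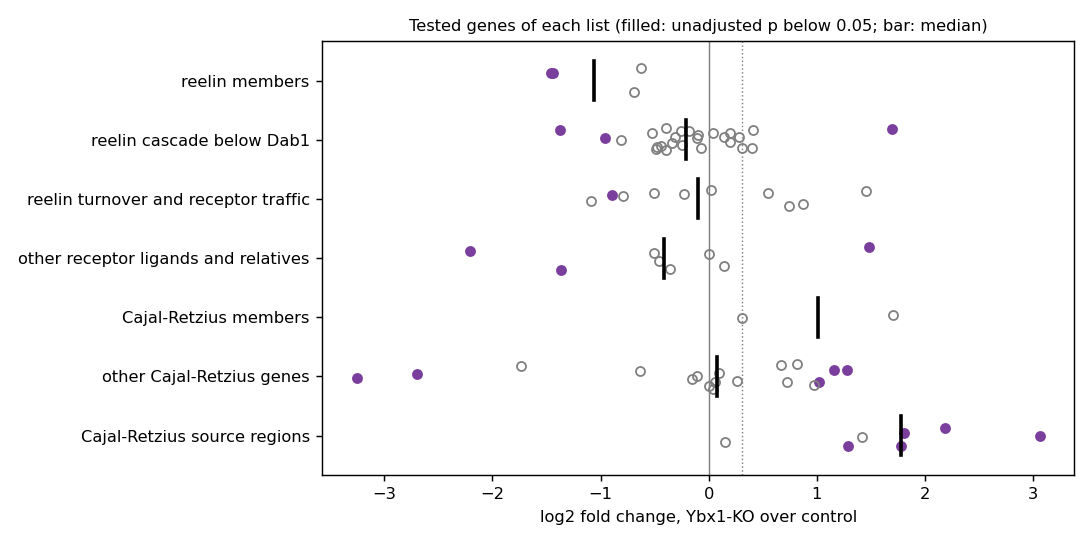
Log2 fold change of each tested gene in the lists of reelin and Cajal-Retzius genes (1 point per gene, filled where the unadjusted p in edgeR was below 0.05, black bar at the median of the list). The solid line marks 0 and the dotted line the median of all tested genes, 0.31. The 4 core reelin genes lie below 0 with a median of -1.06, and the 7 tested genes of the Cajal-Retzius source regions lie above it with a median of 1.77.

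Other genes expressed by Cajal-Retzius cells, many of them shared with other early neurons, gave no common direction. Of 18 genes, all tested, 3 were higher and 2 lower at an unadjusted p below 0.05, against 6.96% and 4.26% of all tested genes, and the log2 median was 0.08. The count of higher genes was 0 without control 1 or without control 3, 1 without Ybx1-KO 2, 2 without Ybx1-KO 1, 6 without Ybx1-KO 3 and 7 without control 2. The count of lower genes ran from 1 without control 3 to 3 without Ybx1-KO 2 or Ybx1-KO 3. The lower pair comprised Tbr1 and Eomes, cortical transcription factors of postmitotic neurons and of intermediate progenitors. Tbr1 was at 124, 1.83 and 138 CPM in control 1, 2 and 3 and at 6.80, 14.4 and 6.25 CPM in Ybx1-KO 1, 2 and 3 (log2 fold change -3.26, adjusted p = 0.314, edgeR). Eomes was at 53.3, 0.468 and 67.0 CPM in control 1, 2 and 3 and at 5.78, 6.44 and 6.39 CPM in Ybx1-KO 1, 2 and 3 (log2 fold change -2.70, adjusted p = 0.406, edgeR). For both genes control 2 lay below every Ybx1-KO library, while its summed telencephalon markers lay within the Ybx1-KO range. The part of regional makeup in these values was not tested.

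Genes of the regions where Cajal-Retzius cells arise were higher in Ybx1-KO NPCs in sum. The summed level of the 10 genes was 63.6, 127 and 65.8 CPM in control 1, 2 and 3 and 188, 207 and 135 CPM in Ybx1-KO 1, 2 and 3. The sums did not overlap, with control 2 closest to the Ybx1-KO libraries. Dbx1, named after its values were seen, made up a large part of the Ybx1-KO sums. It was at 10.3, 54.7 and 20.3 CPM in control 1, 2 and 3 and at 53.5, 97.1 and 57.8 CPM in Ybx1-KO 1, 2 and 3, with overlap. Only 3 of the 7 tested genes were higher without overlap, against 4.99% of all tested genes. Of the 7 tested genes, 5 were higher at an unadjusted p below 0.05 (6.96% of all tested genes) and none lower, at a log2 median of 1.77, and only 2 were higher without control 1, control 3 or Ybx1-KO 2, and 3 without Ybx1-KO 1. Lmx1a, a transcription factor of the cortical hem and of the roof plate along the whole neural tube, was at 5.37, 9.87 and 4.67 CPM in control 1, 2 and 3 and at 64.7, 12.6 and 13.2 CPM in Ybx1-KO 1, 2 and 3. The groups did not overlap, and Ybx1-KO 1 was far above the others (log2 fold change 2.18, SE 0.602, adjusted p = 0.314, edgeR). Rspo1, a secreted activator of Wnt signalling, was at 2.93, 2.25 and 5.94 CPM in control 1, 2 and 3 and at 20.0, 13.0 and 5.83 CPM in Ybx1-KO 1, 2 and 3. Ybx1-KO 3 lay within the control range for this gene (log2 fold change 1.80, adjusted p = 0.412, edgeR). Several of these genes are also used outside the cortex, and the Hox markers of hindbrain and spinal cord were highest in Ybx1-KO 1 and Ybx1-KO 2. Their part in the result was not tested.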

How the data were processed

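The authors sequenced TruSeq Stranded Total RNA libraries, counted read pairs on GENCODE genes with HTSeq 0.6.1p1 and deposited raw counts per gene symbol, 1 table per library, without normalization. The submitters' processing notes name mm10, GRCm38.p5 and CASAVA. The aligner and the strand setting of the counting are not given in the sources used here, so counts of antisense genes are uncertain.

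Exon lengths and coordinates came from GENCODE M21 on GRCm38 (47624 symbols matched directly, 357 by an older symbol, 3752 of 51733 not matched). Genes whose FPKM, scaled by library totals, averaged above 1 in at least 1 group were normalized by TMM and tested with edgeR 4.0.16 in R 4.3.3 on all 6 libraries without covariates, and p-values were adjusted over all tested genes. Of the members, counts per library are given in the results for Trp73, and a range of counts for Reln and Calb2. The CPM values of 3 counts cover counting error only. Single genes were also compared by a two-sided exact permutation test (scipy 1.17.1). The study used limma-voom, which was an alternative here (limma 3.58.1), beside DESeq2 1.42.0, other scalings and filters, and leaving out each library. The fits were first tested on simulated data. Figures were drawn with matplotlib 3.10.9.

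Members and lists were chosen with earlier results of these data known. The genes named are the members, Ybx1, the 2 tested genes with the lowest p in each list and the 5 genes most like Reln, and any other is said to be chosen later. The counts of list genes without each library were added after seeing the data. 1 gene first placed in a list is not reported here and was removed from that list.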

Additional observations from a re-analysis of the deposited data

Results flagged for a closer look

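In Ybx1-KO 3 59.5% of read pairs were assigned to no gene feature, above the highest control share of 46.7%, in tallies that no comparison used. In the same library Trp73os, an antisense gene that shares 280 bases with the Trp73 exons, had 19 counts against at most 3 in a control library. Gm26036, a small nucleolar RNA gene within Trp73, had 14 counts there against 0 in the controls. The Trp73 level of Ybx1-KO 3 was the highest of the 6 libraries.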

How the results depend on the processing

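No member changed direction under any of the alternatives. Of 126 values of tested members, 121 stayed on their side of the threshold and 5 passed it. DESeq2 gave Dab1 a log2 fold change of -1.36 (adjusted p = 0.00229). Leaving out 1 library gave -1.65 to -1.30 for Dab1, past the threshold only without Ybx1-KO 1 with the filter applied again (adjusted p = 0.0424). It gave -1.82 to -1.12 for Vldlr, past the threshold without Ybx1-KO 2 (adjusted p = 0.0364, or -1.67 with 0.0117 when the filter was applied again). For Calb2 it gave 0.97 to 2.37, past the threshold only without Ybx1-KO 2 with the filter applied again (adjusted p = 0.0326). Over all alternatives the adjusted p ranged from 0.00229 to 0.787 for Dab1, 0.0117 to 0.787 for Vldlr and 0.0326 to 0.910 for Calb2. The number of genes called in the series was 0 in each direction, 118 higher and 96 lower with DESeq2, 113 and 80 with no filter, and 0 to 730 higher and 0 to 216 lower without 1 library. Without control 2 it was 29 and 42 (29 and 44 with the filter applied again), without Ybx1-KO 1 79 and 28 (531 and 165), without Ybx1-KO 2 283 and 137 (730 and 216), and without Ybx1-KO 3 27 and 19 among the same genes. The median log2 fold change of all genes moved from 0.31 to 0.53 with library totals only and to 0.70 with no filter. Without Ybx1-KO 3 it was -0.07 among the same genes. It was 0.01 among the 15184 genes that passed when the filter was applied again without that library. The background median of 0.31 thus depended on Ybx1-KO 3. With 3 libraries a group and a common biological coefficient of variation of 0.800, a p that misses the threshold does not show that levels were alike. No paired analysis was possible because the columns carry no number that pairs a control with a Ybx1-KO library.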
